A study of Mus musculus with 24 samples.

Results

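Cardiomyocytes of mice that lack Top2b in the heart muscle cell were compared with cardiomyocytes of wild-type mice 72 h after an injection of PBS, so that the genotypes are set side by side with no drug given. The comparison rests on 6 of the 24 arrays of the series, chosen by their sample titles: 3 arrays labelled Top2b-/- and 3 labelled wild type, with replicate numbers 2, 3 and 4 in each genotype. Both groups are given as male mice of 6 weeks on a 129SvEv/C57BL/6 background, and the knockout is described as conditional in cardiomyocytes. The sources used here do not state the Cre driver, the floxed exons or what the wild-type mice carry at these loci. Hearts were taken down on a Langendorff apparatus, in which the aorta carries the perfusion, live heart muscle cells were collected, and 1-colour Agilent arrays measured their RNA. The remaining groups of the series used here are the same genotypes 72 h after doxorubicin (25 mg/kg, 3 arrays each) and 16 h after PBS (3 arrays each). The labels do not say whether arrays stem from separate animals, and p-values therefore reflect no more than the spread among these samples. All levels are log2 processed intensities minus the 75th percentile of the array, and differences are Top2b-deleted minus wild type, with the SE of the fit and 3 arrays per genotype.

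Top2b encodes DNA topoisomerase II beta, which passes one DNA duplex through a transient break in another and so relieves torsion and knots. Non-dividing cells such as the adult heart muscle cell hold mainly this form, while the alpha form is found in proliferating cells. The beta enzyme is also known for acting at promoters and in long genes, and it is a target of anthracyclines such as doxorubicin.

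The probe for Top2b is a 60-base oligonucleotide on the plus strand at chr14:17263157-17263216 of mm9, the build named in the array files. Its sequence is shown because every statement about the deletion rests on this one probe, and the sources used here do not say if it falls within the deleted stretch.
Top2b: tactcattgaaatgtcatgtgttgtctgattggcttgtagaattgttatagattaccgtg
Top2b stood at 2.65, 2.45 and 2.21 in Top2b-deleted cells, against 3.63, 3.35 and 3.65 in wild-type cells. All 3 deleted arrays lay below all 3 wild-type arrays, and the signal left was 46.6% of wild type. The difference was -1.10 ± 0.18 (limma, adjusted p = 0.0142). An exact permutation test of the 6 arrays gave p = 0.1, two-sided, which is the smallest value that 3 against 3 can give. In bulk RNA, fewer cells of a type and less RNA per cell cannot be told apart, and this holds for each result below. Within the first slide, which carries replicates 2 and 3, the difference was -0.94, and within the second slide, which carries replicate 4, it was -1.43.

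The other topoisomerases and their repair partners did not pass the test. Of 9 tested members of that list only Top2b was called. Top1, the type I enzyme of the nucleus, was at 0.02 ± 0.14 (limma, adjusted p = 0.95), Top1mt, its mitochondrial relative, at -0.26 ± 0.11 (0.254), and Tdp2, which removes trapped type II topoisomerase from DNA ends, at 0.04 ± 0.12 (0.912). The nearest tested genes on chromosome 14 were likewise not called. Rarb, which encodes a retinoic acid receptor, is read from the opposite strand, and its probe begins 0.00021 Mb from the Top2b probe. Rarb averaged 2.39 in deleted and 2.02 in wild-type cells, a difference of 0.36 ± 0.16 (limma, adjusted p = 0.252). Ngly1 was at 0.36 ± 0.14 and Oxsm at -0.51 ± 0.18, with adjusted p of 0.204 and 0.18. These neighbours were looked up after the Top2b value was known.

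Several facts about the arrays touch every result below. The 75th percentile of the arrays lay between 146 and 281 in processed signal, 45.3% to 52.3% of spots were well above background, and 0 spots were saturated. Each slide held all 4 groups of 72 h, and same-numbered deleted and wild-type arrays deviated together, so replicate number was kept as a block in the fit. Replicates 2 and 3 share a slide, so the slide does not pair them by number, and deviations of unlike numbers were not compared. Wild-type replicate 4 stood apart. It correlated at 0.979 with deleted replicate 4 of the same slide, but at 0.969 and 0.964 with wild-type replicates 2 and 3, which correlated with each other at 0.992. Deleted replicate 4 lay apart as well, though less far. It correlated at 0.979 with each of deleted replicates 2 and 3, which correlated with each other at 0.992. Ddx3y, a gene of the Y chromosome, was detected above background in deleted replicate 3 and wild-type replicate 4 only, although the labels give all mice as male. Of 4 Esr1 probes, 1 was bright, at 6.89, 6.70 and 7.10 in deleted cells, against 8.41, 8.58 and -6.18 in wild-type cells, the last being wild-type replicate 4. Tamoxifen-inducible Cre transgenes carry estrogen receptor sequence, as background. What this difference within the wild-type group contributes to any result was not tested. Counts are therefore also given without wild-type replicate 4.

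Of 18678 autosomal genes tested, 828 (4.43%) differed between the genotypes at an adjusted p under 0.05. They split evenly, with 418 higher (2.24%) and 410 lower (2.2%) in Top2b-deleted cells. A gene symbol was given for 530 of them, and the other 298 were probes of clones, predicted genes and intervals, which are counted but not named. Above background on all 6 arrays were 655 of the 828. Among these the median size of the difference was 1.01 on the log2 scale, the change was at least 2-fold in 332, and it was at least 8-fold in 12 that were higher and 13 that were lower. The 6 arrays did not overlap by genotype in 763 of the 828, against 3654 (19.6%) of all tested genes, and the test that chose the 828 nearly fixes the first count. Without wild-type replicate 4 the count was 742 (3.97%), of which 525 were also called with it, and 0 of the 828 turned in sign. Leaving out any other single PBS array gave 272 to 462. Leaving out replicate number 2, 3 or 4 from all 4 groups of 72 h, those given doxorubicin included, gave 75, 69 and 525. The count was 179 without the arrays with Y-linked transcripts and 388 without the replicate block.

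**Figure D1:**
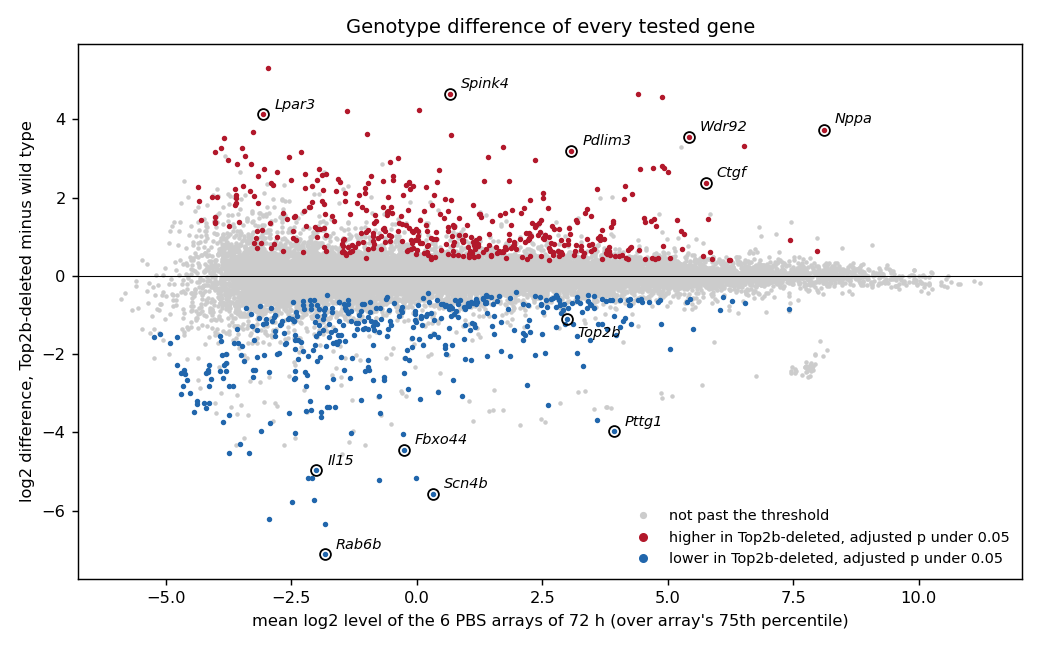
Difference between genotypes (log2, Top2b-deleted minus wild type) against the mean log2 level of the 6 PBS arrays of 72 h, 1 point per tested gene. Of 18678 genes, the 418 higher and 410 lower past the threshold are coloured; Nppa is labelled at a difference of 3.72, and Rab6b lowest, at a fitted -7.12 that is no bound. A group of grey points near a level of 7.7 is described among the additional observations.

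Among genes with a symbol that were above background on all 6 arrays, the largest fall was that of Scn4b, which encodes the beta-4 subunit that speeds opening and closing of the cardiac sodium channel. Scn4b stood at -2.79, -2.33 and -2.27 in deleted cells, against 3.62, 3.20 and 2.51 in wild-type cells. The groups were far apart on every array, and the difference was -5.57 ± 0.32 (limma, adjusted p = 8.22e-05), or 0.021 of the wild-type level. Fbxo44, an F-box protein that brings substrates to a ubiquitin ligase, had -2.57, -2.50 and -2.36 in deleted cells and 1.91, 2.16 and 1.83 in wild-type cells. Pttg1, or securin, which holds separase inactive until chromosomes part, had 1.74, 1.89 and 2.18 in deleted cells and 5.76, 5.53 and 6.43 in wild-type cells. These falls were -4.44 ± 0.25 (adjusted p = 7.74e-05) and -3.97 ± 0.27 (0.000211) in limma. The arrays of each genotype lay close together for these genes.

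The 15 largest measured falls ranged from -5.57 to -2.65. In all 15 the 6 arrays did not overlap, against 19.6% of all tested genes, but their choice by size among called genes nearly fixes this. They came from unlike gene families. Arhgef19 (-4.05), a guanine nucleotide exchange factor, and Cyfip2 (-3.31), a subunit of the WAVE complex, act on the actin cytoskeleton. Stbd1 (-3.14) binds glycogen. Cdh4 (-3.34) encodes R-cadherin and Poln (-2.98) DNA polymerase nu. Pdzd3 (-3.35), a PDZ scaffold, Zfp933 (-3.08), a zinc finger protein, Mal (-2.80), a protein of membrane rafts, Gin1 (-2.65), which resembles retroviral integrases, and Samd4 (-2.65), an RNA-binding repressor, were among the others.

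A large rise was that of Nppa, the precursor of atrial natriuretic peptide, which the ventricle makes in fetal life and again under load. Its probe is shown since it is the largest rise of the fetal list below, on the plus strand at chr4:147376024-147376083 of mm9.
Nppa: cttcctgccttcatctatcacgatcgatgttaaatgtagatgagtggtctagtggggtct
Nppa stood at 9.89, 9.63 and 10.40 in deleted cells, against 5.95, 5.94 and 6.88 in wild-type cells. The lowest deleted array was well above the highest wild-type array. The rise was 3.72 ± 0.35 (limma, adjusted p = 0.00109), or 13.1-fold. By pairs of equal replicate number it was 3.94, 3.69 and 3.52, so both slides gave a like value.

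Spink4, a Kazal-type protease inhibitor, rose most among such genes, with 2.22, 2.92 and 3.82 in deleted cells and -1.43, -1.76 and -1.82 in wild-type cells (4.66 ± 0.57, limma, adjusted p = 0.00405). Wdr92, a WD-repeat protein, had 7.34, 7.09 and 7.17 in deleted cells and 3.28, 3.61 and 4.04 in wild-type cells (3.56 ± 0.45, adjusted p = 0.0044). Both genes were thus separated by over 3 log2 units with no array between the groups. Proteins of muscle structure and the cell surface were among the 15 largest rises, which spanned 2.42 to 4.66. Pdlim3 (3.20) encodes a PDZ and LIM protein of the Z-disc that binds alpha-actinin, Krt18 (2.72) a keratin of simple epithelia, and Sdc4 (2.55) syndecan-4, a heparan sulfate proteoglycan of focal adhesions. Pygl (2.96) is the liver form of glycogen phosphorylase, and Hyi (2.43) a hydroxypyruvate isomerase. Plagl1 (3.30) is an imprinted zinc finger transcription factor, Gcnt1 (3.01) starts core 2 branches of O-glycans, and Abca4 (2.43) is a lipid transporter known from the retina. Trnp1 (3.60), Tmem51 (3.04), Prss23 (2.46), a serine protease, and Wdfy1 (2.42), an endosomal protein, complete the set. Without wild-type replicate 4, 29 of the 30 largest changes stayed past the threshold, the exception being Sdc4 at 2.23 (adjusted p = 0.0525). Without the replicate block Prss23 had an adjusted p of 0.0571.

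Some genes were above background in 1 genotype only, so that their change has only a lower bound. Among the 828 called genes, 32 were well above background on all 3 deleted and 0 wild-type arrays, and 34 on 0 deleted and all 3 wild-type arrays. Each bound divides the mean of the brighter genotype by the lowest signal still called above background, or by the dim probe's own signal where that was higher. Rab6b, a GTPase of Golgi transport, was at least 54.9-fold lower in deleted cells, at -4.92, -6.08 and -5.19 there and 2.10, 1.77 and 1.30 in wild-type cells (limma, adjusted p = 2.72e-05). Il15, a cytokine that sustains natural killer and memory T cells, was at least 22.1-fold lower, at -5.39, -4.43 and -3.64 in deleted cells and -0.04, -0.14 and 1.62 in wild-type cells (adjusted p = 5.79e-05). Ogdhl, a relative of the 2-oxoglutarate dehydrogenase subunit, was at least 12.2-fold lower, and Fgl1, a secreted fibrinogen-like protein, at least 6.4-fold lower. In the other direction Lpar3, a lysophosphatidic acid receptor, was at least 5.91-fold higher, and Masp1, a protease of the lectin complement pathway, at least 3.2-fold higher. The smallest bounds among the named genes were 1.82-fold for Cyp1a1, the dioxin-inducible cytochrome P450, on the lower side, and 1.16-fold for B4galnt1, a ganglioside synthase, on the higher side, which had an adjusted p of 0.0657 without the replicate block. Slc6a17, Tmem56 and Cyct were bounded at 2.55, 4.17 and 2.42-fold lower, and Olfr224, Fras1, Elovl7 and Olfr297 at 3.16, 2.77, 2.41 and 1.58-fold higher.

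**Figure D2:**
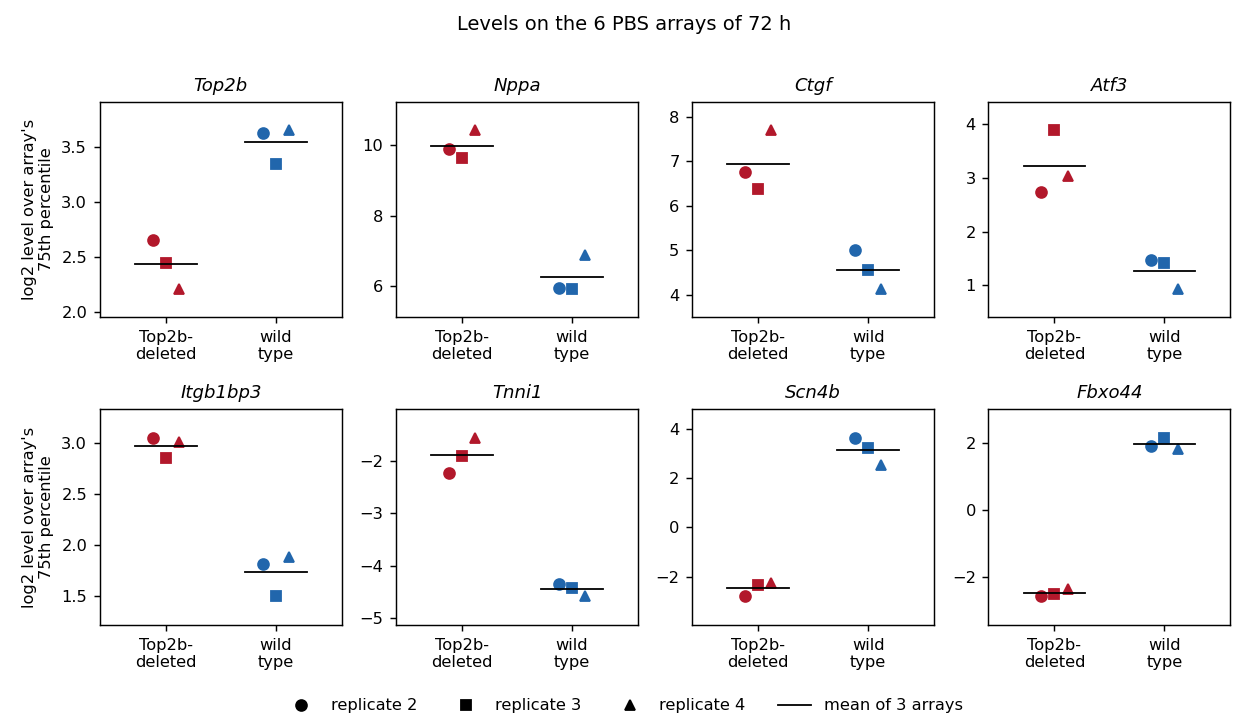
Log2 level over the array's 75th percentile of 8 genes on the 3 Top2b-deleted (red) and 3 wild-type (blue) PBS arrays of 72 h; symbols mark the replicate number and lines the mean of 3 arrays. In each panel the genotypes do not overlap. Each panel has its own scale, so distances between panels cannot be compared; Tnni1 was not well above background in wild-type cells.

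The adult heart under load takes up genes of the fetal program, with natriuretic peptides, skeletal or slow isoforms of sarcomere proteins and matricellular factors. Of 19 tested genes of a fetal and stress list, 5 rose and 0 fell, or 26.3% called against 4.43% of all genes. The median difference of the list was 1.20, against -0.01 over all tested genes, and 17 of 19 were above 0, against 49% of all genes. The list and its members were chosen with results of this series known, so these counts describe the list. Without wild-type replicate 4 the median was 0.91 and 4 members were called, and without the arrays with Y-linked transcripts 1 was. Levels of markers of other cell types are given below, and their part in this list was not tested.

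Besides Nppa, Tnni1 rose, the slow skeletal troponin I that is the fetal isoform of the heart. Tnni1 was at -2.22, -1.89 and -1.56 in deleted cells, against -4.34, -4.43 and -4.58 in wild-type cells, where it was not well above background on any array, and it was at least 3.17-fold higher (limma, adjusted p = 0.00437). Ctgf, the matricellular connective tissue growth factor, had 6.77, 6.38 and 7.70 in deleted and 5.0, 4.55 and 4.13 in wild-type cells. Its rise of 2.38 ± 0.39 (limma, adjusted p = 0.0138) was 1.76 and 1.83 for replicates 2 and 3 and 3.56 for replicate 4. Itgb1bp3, now named Nmrk2, a muscle nicotinamide riboside kinase, had 3.05, 2.85 and 3.01 in deleted and 1.81, 1.49 and 1.88 in wild-type cells (1.25 ± 0.24, adjusted p = 0.0253). Atf3, a stress-induced transcription factor, had 2.74, 3.89 and 3.04 in deleted and 1.48, 1.41 and 0.94 in wild-type cells (1.95 ± 0.37, adjusted p = 0.0258). For all 5 genes the lowest deleted array exceeded the highest wild-type array. Atf3 did not pass without wild-type replicate 4 (2.03, adjusted p = 0.056) or without the replicate block (0.0816).

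Well-known members of the same list did not pass. Nppb, the brain natriuretic peptide gene next to Nppa, was at 7.09, 6.93 and 8.33 in deleted cells, against 6.66, 6.48 and 5.42 in wild-type cells, which do not overlap (1.26, limma, adjusted p = 0.215). Acta1, skeletal alpha-actin, had 6.51, 6.49 and 6.89 in deleted and 4.80, 4.93 and 5.40 in wild-type cells (1.59, adjusted p = 0.196). Ankrd1, a titin-associated repressor, differed by 1.38 (adjusted p = 0.114) and Gdf15, a secreted stress signal, by 1.56 (0.184), with no overlap of arrays in either. Myh7, the slow myosin heavy chain, overlapped. Myh7 had 7.34, 7.31 and 8.42 in deleted cells, against 8.37, 8.26 and 3.26 in wild-type cells, so that its difference of 1.06 (adjusted p = 0.711) became -0.73 without wild-type replicate 4. Myh6, the adult myosin heavy chain, was at -0.20 (adjusted p = 0.675).

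Of 32 tested sarcomere genes, fetal isoforms included, 2 rose and 0 fell (6.25% called, against 4.43% of all genes). They were Tnni1 and Myoz2, a calsarcin that ties calcineurin to the Z-disc. Myoz2 was at 8.25, 8.10 and 8.52 in deleted cells, against 7.62, 7.46 and 7.92 in wild-type cells (0.63 ± 0.11, limma, adjusted p = 0.0201, and 0.186 without the replicate block). The list's median was 0.14, and -0.04 without wild-type replicate 4. Of 28 cardiac transcription factors, Gata6 rose by 0.63 ± 0.11 (adjusted p = 0.019) and 27 did not pass (3.57% called).

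Immediate early genes encode short-lived regulators that answer growth and stress signals, and the isolation of heart cells can itself switch them on. Of 25 tested, 3 rose and 0 fell (12%, against 4.43% of all genes), with a median of 0.53. Btg2, an antiproliferative p53 target, had 3.58, 4.0 and 3.11 in deleted cells, against 2.97, 2.98 and 2.37 in wild-type cells (0.79 ± 0.14, limma, adjusted p = 0.0183). Junb, a subunit of the AP-1 factor, had -1.13, -0.21 and -1.72 in deleted and -2.03, -1.17 and -2.61 in wild-type cells (0.92 ± 0.17, adjusted p = 0.0236). Levels of Junb overlapped between the groups and differed within each pair of equal number, by 0.90, 0.97 and 0.89. Atf3 was the other member. Fos, Egr1 and Jun were at 0.39, 0.19 and -0.27 with adjusted p of at least 0.53. Without wild-type replicate 4 only Btg2 stayed called, and without the replicate block Btg2, Junb and Atf3 had adjusted p of 0.378, 0.483 and 0.0816.

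Genes of membrane excitability moved in both directions. Of 28 potassium and sodium channel and connexin genes, 2 fell and 1 rose, beside 4.43% called over all genes. Scn4b, described above, fell most. Kcnv2, a modifying subunit of voltage-gated potassium channels, fell by 1.07 (limma, adjusted p = 0.00891), with -0.07, -0.39 and -0.90 in deleted and 1.10, 0.76 and 0.01 in wild-type cells. Gja1, connexin 43 of the ventricular gap junction, rose by 0.54 ± 0.12 (adjusted p = 0.0472), with 3.28, 2.94 and 2.72 in deleted and 2.49, 2.46 and 2.37 in wild-type cells. The groups did not overlap in either gene, though deleted replicate 2 and wild-type replicate 4 of Kcnv2 were close. Gja1 had an adjusted p of 0.0649 without wild-type replicate 4, and without the replicate block Gja1 and Kcnv2 had 0.23 and 0.361.

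Of 29 genes of calcium handling, 2 rose and 1 fell (10.3%, against 4.43% of all genes), with a median of 0.04. Casq1, the skeletal calsequestrin that stores calcium in the reticulum, had 1.03, 1.33 and 0.08 in deleted cells, against -3.54, -3.62 and -1.26 in wild-type cells. Its probe was well above background on all 3 deleted but only 1 wild-type array, so that the fitted difference of 3.62 ± 0.82 (limma, adjusted p = 0.0473) is not a measured size. Cacna1g, the Cav3.1 pore of the T-type calcium channel, had 2.43, 2.43 and 1.21 in deleted and -0.17, 0.23 and 0.53 in wild-type cells (1.82 ± 0.41, adjusted p = 0.0479). Its sister gene Cacna1h, the Cav3.2 pore, fell by 1.66 (adjusted p = 0.046), with -2.86, -2.23 and -1.70 in deleted and -0.83, -0.72 and -0.26 in wild-type cells. The 3 genes were thus separated by genotype, with no array between the groups. Without the replicate block, Cacna1g and Cacna1h had adjusted p of 0.0611 and 0.0613, and without wild-type replicate 4 Cacna1h had 0.0975. Ryr2, Atp2a2 and Pln, which release, take up and gate the calcium of the adult reticulum, were at -0.06, -0.17 and 0.38 and did not pass.

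In signalling lists, single members passed. Prkar1a, the regulatory subunit of protein kinase A, rose by 1.06 ± 0.15 (limma, adjusted p = 0.00682), with 5.73, 5.75 and 6.10 in deleted cells, against 4.83, 4.77 and 4.80 in wild-type cells. Grk5, a kinase that desensitizes adrenergic receptors, rose by 0.96 (adjusted p = 0.0484). These were 2 of 29 tested adrenergic and cAMP genes (6.9%, against 4.43% of all genes), of which 0 fell. Grk5 had an adjusted p of 0.0709 without wild-type replicate 4 and 0.122 without the replicate block. Nrg4, a ligand of the ErbB4 receptor, fell by 2.12 (adjusted p = 0.00141), at -3.49, -3.44 and -3.39 in deleted and -1.07, -1.25 and -1.63 in wild-type cells. Erbb2, the shared receptor subunit of neuregulin signalling, rose by 0.71 ± 0.13 (adjusted p = 0.0237). Both belong to a list of 26 insulin, IGF and neuregulin genes (7.69% called), and Erbb2 had an adjusted p of 0.12 without the replicate block.

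Genes of DNA damage and cell death were called at shares close to the 4.43% of all genes. Of 29 damage and repair genes 28 did not pass (3.45% called). Of 30 p53 targets only Btg2 passed (3.33%), and the list's median was 0.01. Bcl2, which blocks mitochondrial cell death, had -0.01, -0.07 and -0.03 in deleted and -1.38, -1.06 and -1.36 in wild-type cells, a rise of 1.23 ± 0.21 (limma, adjusted p = 0.0188). It was the only one of 25 genes of the BCL2 family and caspases to pass (4%).

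Genes of mitochondrial energy metabolism gave 0 calls. This covers 5 lists, namely complex I, complexes II to V, the TCA cycle, fatty acid oxidation, and mitochondrial biogenesis and dynamics, with 160 genes between them. In limma 0 of 160 passed, against 4.43% of all genes. Of the 160, 12 had an unadjusted p under 0.05, against 3647 of all 18678 tested genes, and 152 lay within 0.5 of 0 on the log2 scale. The medians were -0.01, 0.02, 0.08, -0.20 and -0.05 in the order named. In fatty acid oxidation, 23 of 31 genes were below 0. Hadh, the short-chain hydroxyacyl-CoA dehydrogenase, had 6.67, 6.56 and 6.56 in deleted cells, against 7.47, 7.20 and 6.81 in wild-type cells (-0.57, adjusted p = 0.0872). Cpt2, which reforms acyl-CoA inside the mitochondrion, was at -0.45 (adjusted p = 0.0642). Hadh was the 1 call of that list without wild-type replicate 4. A p that misses the threshold does not show that these levels were equal. In glycolysis and glycogen metabolism, 3 of 30 passed (10%). Pfkp, the platelet phosphofructokinase, and Aldoc, the brain aldolase, rose by 0.73 and 1.24 (adjusted p = 0.0464 and 0.0473), and Gys1, the muscle glycogen synthase, fell by 0.60 (0.0389). A second probe, above background on all 3 arrays of each genotype, was at -0.02 for Gys1 and at 0.24 for Pfkp. Without the replicate block Pfkp, Aldoc and Gys1 had adjusted p of 0.0719, 0.0656 and 0.115, and Aldoc had 0.0937 without wild-type replicate 4. The difference in call rate between the metabolic lists was not tested.

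Genes of oxygen and iron chemistry passed singly. Sod3, the extracellular superoxide dismutase, fell by 1.46 ± 0.23 on the log2 scale (limma, adjusted p = 0.0129), with 0.95, 1.30 and 1.88 in deleted cells, against 2.78, 2.79 and 2.95 in wild-type cells. It was the only one of 32 antioxidant genes called (3.12%, against 4.43% of all genes). Of 25 iron and heme genes 2 were called (8%). Ppox of heme synthesis and Slc25a37, the mitochondrial iron importer mitoferrin, fell by 0.61 and 0.63 (adjusted p = 0.0313 and 0.0245). Without the replicate block Sod3, Ppox and Slc25a37 had adjusted p of 0.0613, 0.0649 and 0.234, and without wild-type replicate 4 Ppox had 0.0655.

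Immune genes moved singly. Of 31 interferon-stimulated genes 1 rose and 2 fell (9.68%, against 4.43% of all genes), and 21 were below 0. Rsad2, or viperin, had -3.68, -2.67 and -1.74 in deleted cells, against -1.42, -1.56 and 0.24 in wild-type cells (-1.79 ± 0.26, limma, adjusted p = 0.00917), and Mx2 fell by 0.67 (0.0386). Ifi35 rose by 0.87 ± 0.10 (adjusted p = 0.00345), with 2.14, 2.35 and 2.63 in deleted and 1.44, 1.45 and 1.62 in wild-type cells. Of 21 chemokines and cytokines 2 were called (9.52%). Il15 and Cx3cl1, the membrane-bound chemokine fractalkine, fell, Cx3cl1 by 0.63 (adjusted p = 0.0361). Without the replicate block Rsad2 and Cx3cl1 had adjusted p of 0.234 and 0.0533, and without wild-type replicate 4 Mx2 had 0.0646. Antigen presentation and complement lists gave 0 calls among 26 and 20 genes.

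Several of the remaining lists held no called gene. Heat shock proteins, proteasome subunits, cytosolic ribosomal proteins, atrophy and autophagy genes, collagens and cell cycle genes gave 0 calls among 27, 35, 61, 29, 15 and 28 tested. Of the proteasome subunits 30 of 35 (85.7%) and of the heat shock proteins 19 of 27 (70.4%) were above 0, against 49% of all genes, and 25 and 15 were without wild-type replicate 4. The atrophy and autophagy list and the cell cycle list each had 1 call when that array was left out. Polr1e, a subunit of RNA polymerase I, rose by 1.11 ± 0.17 (limma, adjusted p = 0.0101), with 2.95, 3.02 and 3.03 in deleted and 1.93, 1.81 and 1.92 in wild-type cells. Chac1, which degrades glutathione in the integrated stress response, rose by 1.06 (adjusted p = 0.0456), and Thbs4, a thrombospondin of the matrix, by 1.52 (0.0444). Mrps12, a mitochondrial ribosomal protein, fell by 0.66 (adjusted p = 0.0272). Thbs4 and Mrps12 had adjusted p of 0.0959 and 0.0683 without wild-type replicate 4, and without the replicate block Chac1, Mrps12 and Cdh13 had 0.096, 0.0534 and 0.0672. Nr1d2, the clock repressor REV-ERB beta, fell by 0.80 (adjusted p = 0.00975) by a probe that the array files place on chromosome 19. A second Nr1d2 probe, placed on chromosome 14, was at 0.15. Among 22 long genes of neuronal adhesion and axon guidance, Ncam1 rose by 2.60 (adjusted p = 0.000923), while Cdh4 and Cdh13 fell by 3.34 and 0.58 (0.00455 and 0.0423). Ncam1 was above background on 3 deleted and 1 wild-type array, so its fitted rise is not a measured size. In all, 23 of 37 pathway lists held at least 1 called gene and 41 of 1023 different genes in them were called (4.01%), close to the 4.43% of all genes.

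**Figure D3:**
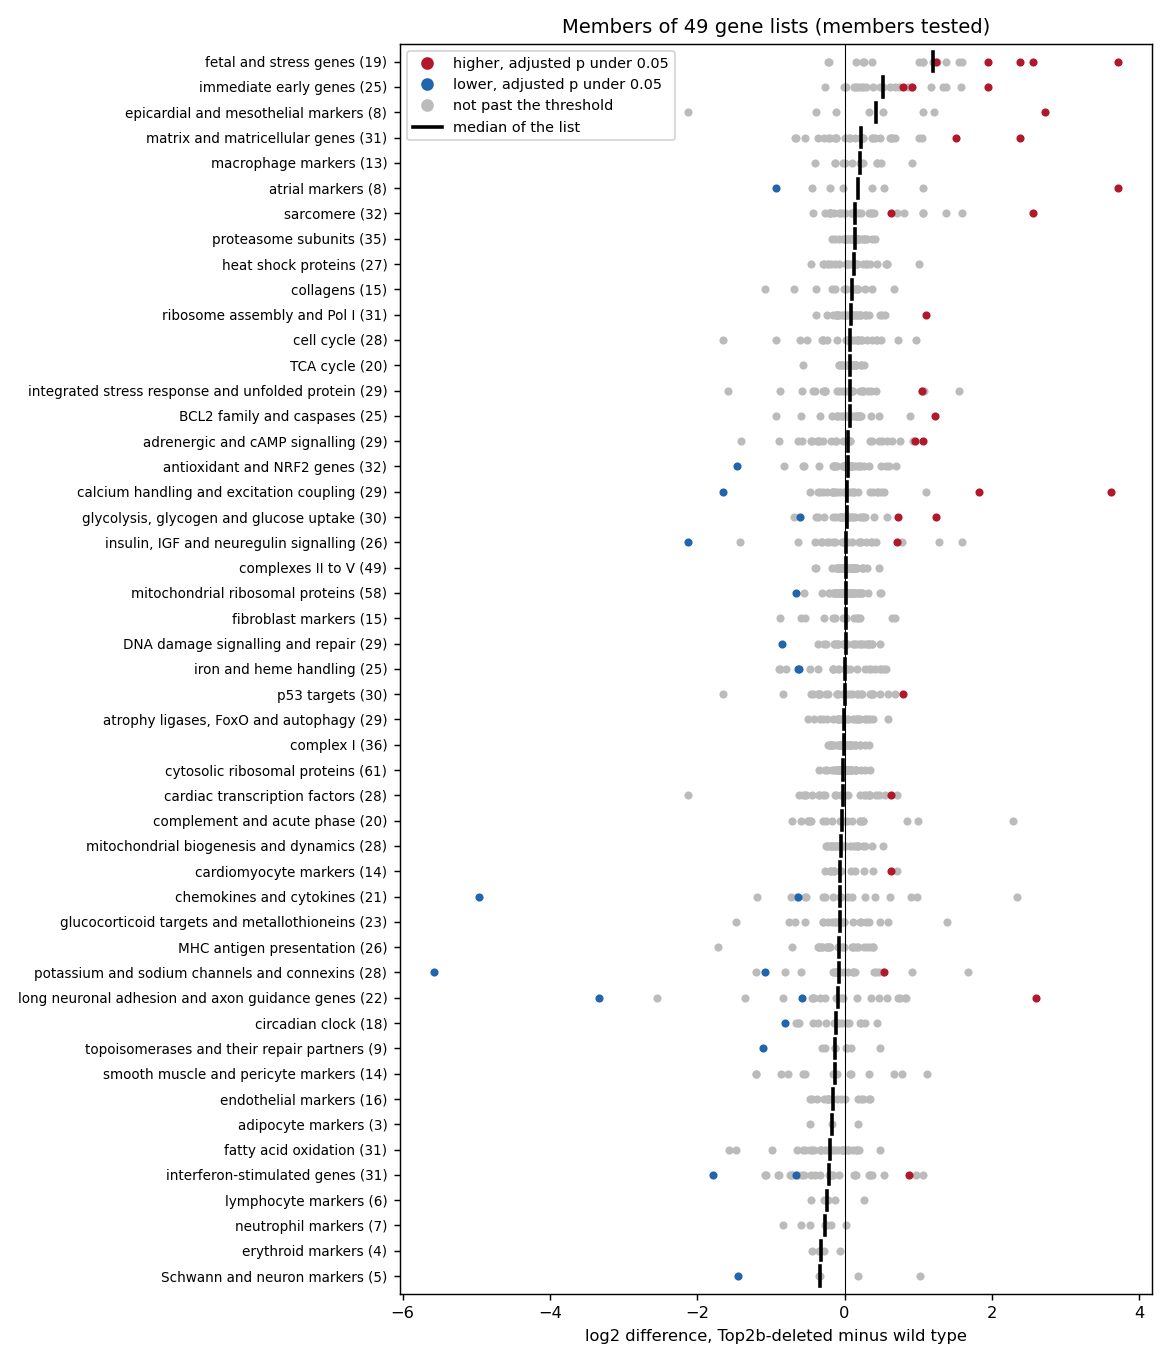
Log2 difference (Top2b-deleted minus wild type) of every tested member of 49 lists, 1 row per list with the number tested in brackets, ordered by the list's median (black bar); red and blue points passed the threshold. The fetal and stress list has the highest median, 1.20, with 5 members higher and 0 lower, and the 5 lists of mitochondrial energy metabolism have 0 called members.

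Markers of other cells in the preparation were compared as lists, since isolated cardiomyocytes carry some non-myocytes. Cardiomyocyte markers had mean levels of 9.26 to 9.33 over deleted arrays and 8.96 to 9.36 over wild-type arrays, the lowest being wild-type replicate 4, and 1 of 14, Myoz2, passed. Fibroblast markers had 0 of 15 called, with mean levels of 0.47 to 2.18 in deleted and 0.63 to 2.11 in wild-type arrays. For endothelial markers 0 of 16 were called, with means of 0.58 to 2.21 in deleted and 0.54 to 2.73 in wild-type arrays, and for macrophage markers 0 of 13, with means of -1.16 to 0.81 and -1.55 to 1.02. In these 3 lists wild-type replicate 4 was the highest wild-type array, and the groups overlapped. The median difference of the endothelial list was -0.16, with 6 of 16 genes above 0, and without wild-type replicate 4 it was 0.38, with 12 of 16 above 0. In the same way the epicardial median of 0.42 became 1.18 and the atrial one of 0.18 became 0.51. Smooth muscle, neutrophil, lymphocyte, erythroid and adipocyte markers gave 0 calls as well.

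Of 12 marker lists 4 held a called gene. In them 5 of 112 different genes were called (4.46%), close to the 4.43% of all genes. In the atrial list, Nppa rose and Nr2f1, a nuclear receptor of atrial identity, fell by 0.93 (limma, adjusted p = 0.0372, with 0.0856 without wild-type replicate 4 and 0.516 without the replicate block). The atrial light chains Myl7 and Myl4 were at 1.06 and 0.38 and Sln, the atrial SERCA regulator sarcolipin, at 0.54, all with adjusted p of at least 0.53. In the epicardial and mesothelial list Krt18 rose, while Wt1 and Msln were at 0.52 and 0.33 (adjusted p = 0.687 and 0.846). The 8 tested members of that list ran from -2.13, which did not pass, to 2.72 for Krt18, and 3 of them were below 0. Sox10, a Schwann cell factor, fell by 1.44 ± 0.13 (adjusted p = 0.000943), at -2.51, -2.52 and -2.26 in deleted and -1.19, -0.98 and -0.79 in wild-type cells. What share other cells had in these changes was not tested.

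Called genes were not spread evenly along the genome. On chromosome 8, 96 of 1058 genes (9.07%) were called, against 4.43% over all autosomes, while the other chromosomes ranged from 2.34% to 5.7%. Chromosome 14, which holds Top2b, had 3.73%. Within 10 Mb of Top2b 4 of 130 genes (3.08%) were called. Of the named ones, Samd8, a sphingomyelin synthase relative, fell by 1.16 (limma, adjusted p = 0.00403), Plac9 fell by 1.84 (0.0348), and Myoz1, the skeletal calsarcin, above background on 3 deleted and 2 wild-type arrays, rose by 1.16 (0.0258). Plac9 and Myoz1 had adjusted p of 0.0788 and 0.0699 without wild-type replicate 4, and 0.37 and 0.0931 without the replicate block. The fourth was a probe of a noncoding interval. Samd8 had -1.34, -1.60 and -1.58 in deleted cells, against -0.36, -0.21 and -0.46 in wild-type cells.

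In windows of 10 Mb, the window with the largest share was 70 to 80 Mb of chromosome 8, where 35 of 150 genes (23.3%) were called, 20 higher and 15 lower. From 40 to 50 Mb of the same chromosome, where Pdlim3 and Fgl1 lie, it was 14 of 70 (20%). From 140 to 150 Mb of chromosome 4 it was 22 of 148 (14.9%), and 6 of the 30 largest measured changes lie in that window, among them Nppa, Tmem51, Fbxo44, Arhgef19 and Zfp933. Of the 22, all 22 were called in the same direction under doxorubicin and 13 at 16 h. In 18 of 242 windows at least 10% of genes were called. These windows, picked by that share, held 156 of the 828 calls (18.8%) and 5.89% of the tested genes. Without wild-type replicate 4, 24 genes were called from 70 to 80 Mb and 8 from 40 to 50 Mb of chromosome 8, and 22 in the window of chromosome 4. From 70 to 80 Mb of chromosome 8 the count ran from 2 to 24 over the arrays and replicate numbers left out, and it was 17 without the replicate block. The cause of the uneven spread was not tested.

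**Figure D4:**
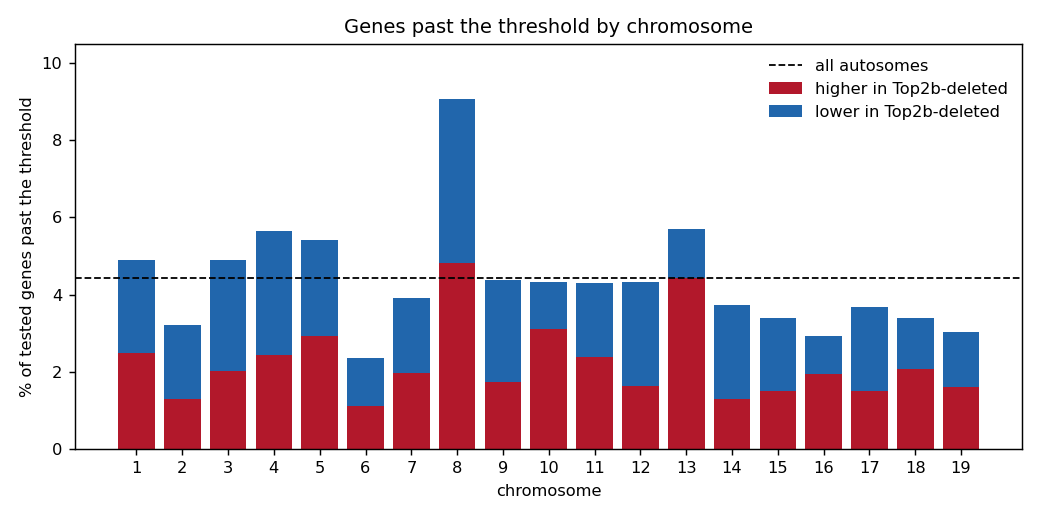
Share of tested genes past the threshold on each autosome (percent), split into genes higher (red) and lower (blue) in Top2b-deleted cells; the dashed line is the share over all autosomes, 4.43%. Chromosome 8 stands at 9.07%, and chromosome 14, where Top2b lies, at 3.73%.

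For some genes, probes at different places of 1 gene did not move together. Of the 46 genes with the largest measured or bounded changes, 15 had several probes above background on all arrays of a genotype. In 11 all these probes had the same sign, and in 4, Zfp933, Plagl1, Wdfy1 and Gin1, they did not. Only in 9 of the 11 did all these probes differ by over 1 in log2, the exceptions being Arhgef19 and Wdr92. A second Arhgef19 probe was at -0.88, against -4.05 for the probe used. A second Wdr92 probe was at 0.28, against 3.56 for the probe used, and its arrays overlapped between the genotypes. The probes of Zfp933 and Plagl1 are shown with their mm9 position, as they show how far 2 oligonucleotides of a gene can part.
Zfp933 at chr4:147197098-147197157, minus strand, fell: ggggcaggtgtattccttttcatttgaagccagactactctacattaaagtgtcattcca
Zfp933 at chr4:147200007-147200066, minus strand, did not: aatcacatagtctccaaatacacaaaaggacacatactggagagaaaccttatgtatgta
Plagl1 at chr10:12850832-12850891, plus strand, rose: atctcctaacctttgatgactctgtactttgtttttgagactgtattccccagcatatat
Plagl1 at chr10:12848851-12848910, plus strand, did not: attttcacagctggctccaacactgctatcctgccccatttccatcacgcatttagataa
The first Zfp933 probe had -2.27, -2.30 and -2.33 in deleted cells, against 1.08, 0.79 and 0.47 in wild-type cells. Its other probe had -1.51, -1.70 and -1.77 in deleted and -2.49, -1.58 and -1.85 in wild-type cells, a difference of 0.31. The 2 printed Plagl1 probes were at 3.30 and -0.07 between the genotypes, and 2 further probes, each close to one of them, at 3.28 and -0.43. For Fbxo44, Trnp1 and Abca4, 2 probes each gave like values, such as -4.44 and -4.53 for Fbxo44 and 2.43 and 2.50 for Abca4, although the second Fbxo44 probe was above background on 0 deleted arrays. Over all called genes, 219 had 2 or more such probes, and in 168 of these the signs were the same.

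The genotype difference under doxorubicin at 72 h is taken between 6 other arrays on the same slides. That at 16 h after PBS is taken between 6 arrays on other slides. These mean differences share no array with the comparison above. Both comparisons of 72 h come from the same fit of 12 arrays, however, and share its estimate of spread. Calls in both at 72 h are therefore not independent. Under doxorubicin 3598 of 18678 genes were called (19.3%). Of the 828 genes, 788 had the same sign there and 589 were called with the same sign, which is 71.1% of the 828 and 16.4% of the 3598. At 16 h 2231 of 17869 genes were called (12.5%), and 1179 with the slide as a block, since 1 deleted array, replicate 3, lies on another slide than the other 5. At that time all 3 wild-type arrays held Y-linked transcripts and had an Esr1 probe at -5.78, -5.95 and -5.48, not well above background, while 0 of 3 deleted arrays held Y-linked transcripts and their Esr1 probe stood at 5.91, 5.73 and 6.45. Genotype, Y-linked transcripts and the Esr1 signal therefore cannot be told apart at 16 h. Of the 828, 770 were tested at 16 h, 740 had the same sign, and 401 were called with the same sign, which is 48.4% of the 828 and 18% of the 2231. In 160 of the 828 every deleted array of the series lay on one side of every wild-type array, over all 24 arrays, against 205 (1.1%) of all tested genes. The 24 include the 6 arrays by which the 828 were chosen, so part of that excess is built in. Among the 160 were Scn4b, Fbxo44, Pttg1, Spink4, Pygl and Krt18.

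Of the 30 largest measured changes, all 30 were called with the same sign under doxorubicin, and 23 at 16 h. Scn4b was at -5.0 ± 0.32 under doxorubicin and -4.66 ± 0.87 at 16 h, and Nppa at 2.65 ± 0.35 and 2.44 ± 0.37. Gin1 was the only one of the 30 given another sign at 16 h, at 0.38 (limma, adjusted p = 0.529), against -2.65 at 72 h. The 16 h value comes from a second Gin1 probe, which was at 0.53 at 72 h. On the probe behind -2.65, every deleted array lay below every wild-type array over all 24, so that probe kept its sign at 16 h. Cdh4 was at -0.54 at 16 h and was not called there. In the fetal list, Tnni1 (2.88), Ctgf (2.91) and Itgb1bp3 (4.38) were called higher at 16 h, while Ctgf was at 0.13 under doxorubicin (limma, adjusted p = 0.834).

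**Figure D5:**
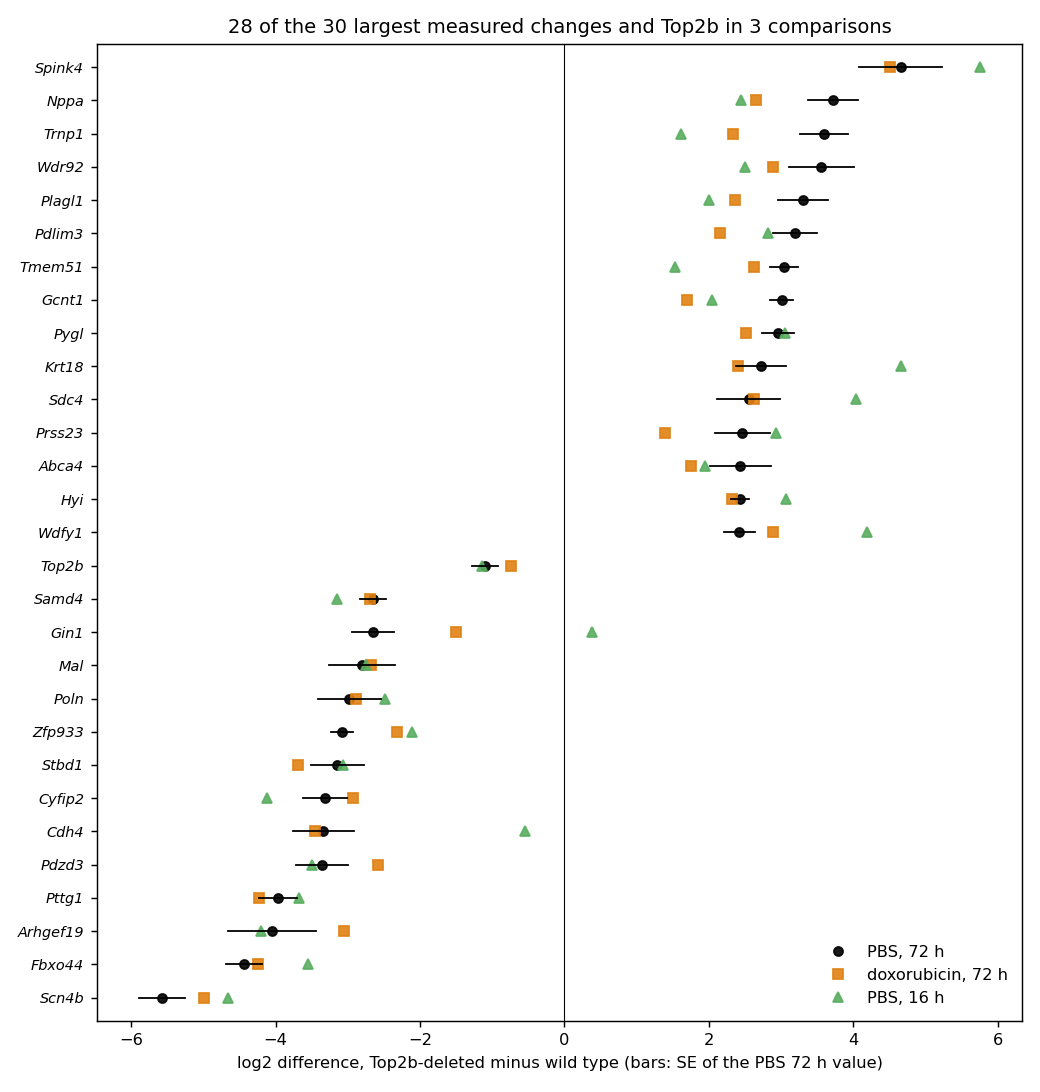
Log2 difference (Top2b-deleted minus wild type) of 28 of the 30 largest measured changes and of Top2b at 72 h after PBS (black, bars show the SE), 72 h after doxorubicin (orange) and 16 h after PBS (green). All 28 keep their sign under doxorubicin, and 27 keep it at 16 h. The exception is Gin1, whose green value comes from another probe of the gene than its black value. The genes were chosen by the black values, which are therefore a description.

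The difference between the 2 treatments' genotype differences was tested directly, and 0 of 18678 genes passed in limma, with 2791 at an unadjusted p under 0.05. Of the 828 genes, 40 had the opposite sign under doxorubicin, and 4 of them were called there. Atf3 was 1.95 higher in deleted cells after PBS and 1.33 lower after doxorubicin, a difference of -3.28 ± 0.52 (unadjusted p = 0.0002, adjusted p = 0.215). Btg2 was 0.79 higher after PBS, and at -0.85 under doxorubicin (unadjusted p = 2.16e-05, adjusted p = 0.215). The other 2 were Aph1a and Spsb2, looked up after their values were seen. Cyp1a1, dim in deleted cells, was at a fitted -3.03 after PBS and -0.29 under doxorubicin (adjusted p of the difference 0.215).

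The difference between 72 h and 16 h passed for 2 of 19028 genes (0.0105%), and 1905 had an unadjusted p under 0.05. Arrays of 16 h and 72 h lie on separate slides, and time and slide cannot be told apart. Rab13, a GTPase of tight junctions, was at -4.12, -4.07 and -3.29 in deleted cells, against -3.28, -3.26 and -2.43 in wild-type cells at 72 h. At 16 h it was at -2.10, -1.79 and -2.11 in deleted cells, against -2.71, -2.82 and -2.83 in wild-type cells, so that the genotypes changed places. At 72 h its probe was well above background on 1 deleted and 2 wild-type arrays. The difference was -1.62 ± 0.23 (limma, adjusted p = 0.0204). Fam171b, a membrane protein of little-known role, was above background on the deleted arrays of 16 h, at -2.35, -2.25 and -2.64, and on no other array of the 12. Its fitted difference passed (adjusted p = 0.0204) but has no measured size. The 2 calls depend on the fit: with the slide as a block, or without any block, 0 genes passed, and without wild-type replicate 4 of 72 h 73 did.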

How the data were processed

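The deposited scanner output (Feature Extraction 10.7.3.1, according to its headers) gives, for every array, the processed intensity of each spot (linear, background-subtracted, not normalized between arrays), the raw mean and background intensity, and flags for outliers and background, all set by the authors' scanner software. The authors' deposited value table holds a ratio of processed signal to the array median, which a comparison of both showed (SD of the log2 difference at most 1.54e-06). Here outlier spots were set missing, log2 of the processed signal minus the 75th percentile was taken per array, and spots were averaged per probe. A probe well above background on all 3 arrays of 1 of 4 groups at 72 h was kept, and a gene took its brightest probe. Only autosomes (mm9) were used. R 4.3.3 with limma 3.58.1 fitted 12 arrays, with 4 group means and replicate number as a block (6 residual degrees of freedom), and Benjamini-Hochberg adjustment over 18678 genes, threshold 0.05. The numbers pair the arrays because each shares a slide, and deviations of same-numbered arrays correlated at 0.369, 0.378 and 0.563. The 16 h fit used 12 arrays without a block, and the fit between times 24 arrays. Each of these fits chose the brightest probe of a gene on its own arrays.

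Named are the topoisomerases, the 15 largest rises and falls measured on all 6 arrays, up to 8 bounded genes per direction, up to 4 called members per list (or the one of smallest p), called genes within 10 Mb of Top2b, and genes called between treatments or times. The 49 gene lists, the members and the rules were chosen with earlier results of these data known. A split of calls by gene length is void, since 71.3% of genes had a length. Some named genes are not reported here. Number of arrays limits the precision.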

Additional observations from a re-analysis of the deposited data

Results flagged for a closer look

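Rab13 (-1.62) and Fam171b (a fitted -3.50, no measured size) differed between 72 h and 16 h in the genotype difference after PBS, by a test of that difference (limma, adjusted p = 0.0204 each). The times lie on different slides, and at 72 h Fam171b was above background on 0 arrays and Rab13 on 1 deleted and 2 wild-type arrays.

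Named genes moved one way in all 3 replicate pairs after PBS and the opposite way in all 3 pairs after doxorubicin at 72 h. The mean doxorubicin differences, Top2b-deleted minus wild type, were -1.29 for Cebpd, -0.41 for Junb, -1.33 for Atf3, 0.19 for Cdh13, -0.78 for Cd14 and -0.85 for Btg2. After PBS the same genes were at 1.39, 0.92, 1.95, -0.58, 0.91 and 0.79. The difference between treatments did not pass over all genes for any of the 6 in limma (adjusted p from 0.215 to 0.232), and its unadjusted p ran from 2.16e-05 for Btg2 to 0.00249 for Cd14. Cebpd is a C/EBP transcription factor of the acute-phase response, and Cd14 is the endotoxin co-receptor of macrophages. Neither passed after PBS (adjusted p = 0.0532 and 0.119).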

How the results depend on the processing

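The count of 828 genes was within 1.5 times under the slide as a block, normexp, quantile, cyclic loess, the authors' value table, averaged probes, each probe by itself, the percentile over spots detected on all arrays (chosen after seeing the data), robust moderation, all chromosomes, the Y-linked covariate, within slide 1 and with probes above background on all 6 arrays. It was 388 with no replicate block (382 of these shared with the same sign), 537 in the 6 PBS arrays alone, 179 without the arrays with Y-linked transcripts, 354 with no filter (where the median of all genes was -0.13) and 3032 with array weights. Leaving out 1 array or replicate number gave 69 to 742. The share of higher genes was 32.8% without replicate 4 and 33% within slide 1, against 50.5%. Top2b ranged from -1.20 to -0.93 with arrays left out (adjusted p 0.0388 to 0.178), was -0.96 (adjusted p = 0.134) without the Y-linked arrays, and -1.43 within slide 2, with no test. Fetal and stress genes called higher numbered 0 to 4 with arrays left out, 2 within slide 1, 1 without the Y-linked arrays and 3 with no filter. The genotype difference under doxorubicin at 72 h was called in 1471 genes with no replicate block, against 3598. The genotype difference in PBS at 16 h was called in 1179 genes with the slide as a block and 932 to 1299 with arrays left out, against 2231. Between times, 0 passed with the slide as a block or no replicate block, and 0 to 73 with arrays left out. Across 27 settings with a test, the 87 called genes named besides Top2b kept their direction in 2328 of 2328 values and the threshold in 1756. These genes were chosen by passing in the main fit, and the settings reuse its arrays or part of them. The kept direction was thus nearly fixed in advance. Those lost without wild-type replicate 4 were Sdc4, Atf3, Junb, Cacna1h, Grk5, Thbs4, Nr2f1, Mx2, Ppox, Mrps12, Gja1, Aldoc, Myoz1 and Plac9. Called genes on chromosome 8, 70 to 80 Mb, numbered 2 to 24 with arrays left out. Values near 0 turned sign. Top1 was at -0.067 within slide 1, -0.049 without the Y-linked arrays, -0.025 with cyclic loess, -0.062 with array weights and -0.067 to 0.13 with arrays left out. Tdp2 was at -0.027 without the Y-linked arrays, -0.0055 with cyclic loess and -0.028 to 0.15 with arrays left out. Rmi1 was at -0.021 with averaged probes and -0.0022 to 0.18 with arrays left out. Slc4a1 ran from -0.57 to 0.046 and the median of pathway: matrix and matricellular genes from -0.032 to 0.31 with arrays left out. Fabp4 and Egfl7 were at 0.32 and 0.28 without the Y-linked arrays. The causes were not tested.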

Other observations

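A set of probes moved together although their annotated genes are unrelated. Each holds a tandem repeat of GAA (in any frame, at least 24 bases), and the set was looked for after its members had been seen in the plot of difference against level. Of the 18678 tested features 30 hold such a run, 30 of 30 were below 0, and 0 passed the threshold (lowest adjusted p 0.0584), while all 30 had an unadjusted p under 0.05. Their median level was 5.99, 6.32 and 7.64 in Top2b-deleted cells, against 9.51, 9.53 and 7.87 in wild-type cells. Replicate 4 of both genotypes lay between replicates 2 and 3 of the deleted and of the wild-type cells. The median difference was -2.33, and -3.01 without wild-type replicate 4. Under doxorubicin it was -2.83, with array medians of 6.11, 6.75 and 7.31 in deleted and 10.2, 9.79 and 8.73 in wild-type cells, and at 16 h it was -0.85. The probes are near-copies of one sequence, so they amount to 1 measurement.

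Probes labelled Gcm1 and Pigr are printed as examples, with the GAA run in capitals.
Gcm1 at chr7:123731567-123731626, minus strand of mm9: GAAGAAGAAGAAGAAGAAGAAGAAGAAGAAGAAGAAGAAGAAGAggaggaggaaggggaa
Pigr at chr14:70241922-70241981, minus strand of mm9: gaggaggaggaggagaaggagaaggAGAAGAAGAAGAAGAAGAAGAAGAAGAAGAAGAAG
Runs of the other 3-base units were rare among tested features. All 8 probes with a run of AGG were below 0, with a median of -0.45. Some of these also hold a GAA run, so the AGG and GAA sets are not separate. The 3 probes with GTT had a median of 0.17. Dcc, a member of the axon guidance list at -2.55, is measured by such a GAA probe, which the files place on chromosome 7, so its value is not that of 1 transcript. None of the named genes above has a probe with a 3-base run (0). The source of the repeat signal was not tested.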
